A study of Mus musculus with 9 samples.

Results

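The Tcl1 family was followed across mouse embryonic stem cells (mESCs) that differ in RING1B. It was taken as 6 genes, Tcl1 and Tcl1b1 to Tcl1b5, of 21713 genes in the deposited array table, and all 6 had at least 1 probe named for them. They were measured by 10 probes, 9 in that table of 30170 probes and 1, for Tcl1b5, found in the scan files alone. The family was proposed after Tcl1b1 had been seen to fall in cells without RING1B, so its members were selected on the comparison of KO with WT. Values of that comparison, and of KO with I53A, which uses the same KO arrays, are therefore a description and carry no test. The comparison of I53A with WT shares the WT arrays with it.

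RNA came from 9 samples of E14Tg2a, a male ES cell line of strain 129P2/OlaHsd grown in serum with LIF, with 1 single-colour Agilent array per sample. The parental cells were wild type (WT, n = 3). In Ring1B-/- cells (KO, n = 3) both alleles of Rnf2, the gene for RING1B, lacked exon 3. In Ring1B I53A/I53A cells (I53A, n = 3) both alleles encoded RING1B with alanine for isoleucine at a residue that contacts the E2 enzyme, which leaves the protein in Polycomb repressive complex 1 without its ubiquitin ligase activity. No second, separately derived line of either mutant is described in the sources used here, so a difference between groups cannot be told apart from a difference between lines. The samples of a group are called biological replicates in the study's methods, with no more said of how they were kept apart, and p-values measure the spread between these samples. The design asks which RING1B-dependent transcripts also depend on its ligase activity.

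TCL1 proteins are small, enzymatically inactive co-activators of AKT kinases: they bind the AKT pleckstrin homology domain and promote AKT activation. Human TCL1A is best known as an oncogene switched on by translocation in T cell leukaemia. In the mouse, the family is expressed in oocytes, early embryos and ES cells, and Tcl1 supports ES cell self-renewal downstream of the pluripotency factors. The mouse locus carries several Tcl1b copies beside Tcl1, and a further member, Mtcp1, lies elsewhere.

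The 6 genes occupied 75719 bases of chromosome 12 (105147019 to 105222737, GRCm38, RefSeq). Tcl1b2 came first (105147019 to 105155225), followed by Tcl1b1 (105159704 to 105166625), Tcl1b5 (105176344 to 105181145), Tcl1b3 (105191045 to 105195399) and Tcl1b4 (105202395 to 105206993), all on the plus strand. Tcl1 (105216753 to 105222737) lay at the other end on the minus strand. Mtcp1 (75410442 to 75416584) lay on the X chromosome.

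The start regions of the Tcl1b genes were near copies of each other, and some are shown here because the values that follow set these copies side by side. Over the 250 bases before the annotated start site (RefSeq, GRCm38.p6), the 10 pairs of Tcl1b genes were identical at between 91.9% and 99.2% of aligned bases, with between 62.4% and 94.8% of the window aligned. By the share of aligned bases, Tcl1b2 and Tcl1b4 were the closest pair and Tcl1b1 and Tcl1b5 the least alike. Over the whole window, though, Tcl1b1 and Tcl1b5 were identical at 217 bases, and Tcl1b5 and Tcl1b3, with less aligned, at 145. Tcl1 matched the Tcl1b genes at 63.5% to 67.6%. The same alignment against the promoters of 10 neighbouring genes gave 56.9% to 64.6% for Tcl1 and 55.0% to 66.8% for Tcl1b1. The longest stretches present in all 5 Tcl1b windows were 2 of 25 bases each. The first ended between 131 and 225 bases before the start site and the other between 3 and 32 bases before it. Each occurred in 5 of 32851 mouse promoters (0.0152%), these 5. Below, capitals mark both stretches in Tcl1b1, the member with the lowest KO signal relative to WT, and in the close pair Tcl1b2 and Tcl1b4. In Tcl1, capitals mark each CG.
Tcl1b1, chr12:105159454-105159703: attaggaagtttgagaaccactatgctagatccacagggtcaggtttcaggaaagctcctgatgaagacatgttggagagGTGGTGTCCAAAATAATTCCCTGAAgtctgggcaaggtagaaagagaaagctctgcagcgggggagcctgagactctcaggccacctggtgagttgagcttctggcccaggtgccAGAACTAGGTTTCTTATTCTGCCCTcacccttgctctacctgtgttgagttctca
Tcl1b2, chr12:105146769-105147018: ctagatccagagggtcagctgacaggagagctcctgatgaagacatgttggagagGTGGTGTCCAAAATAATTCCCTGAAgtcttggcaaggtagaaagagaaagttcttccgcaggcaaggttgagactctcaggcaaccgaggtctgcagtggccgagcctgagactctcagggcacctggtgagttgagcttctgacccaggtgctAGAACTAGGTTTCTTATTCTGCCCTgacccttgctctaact
Tcl1b4, chr12:105202145-105202394: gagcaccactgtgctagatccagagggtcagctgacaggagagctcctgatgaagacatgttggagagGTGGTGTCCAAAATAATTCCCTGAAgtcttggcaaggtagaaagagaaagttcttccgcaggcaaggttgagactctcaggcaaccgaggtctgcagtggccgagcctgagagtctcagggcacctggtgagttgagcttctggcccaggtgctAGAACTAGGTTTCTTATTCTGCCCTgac
Tcl1, chr12:105222738-105222987: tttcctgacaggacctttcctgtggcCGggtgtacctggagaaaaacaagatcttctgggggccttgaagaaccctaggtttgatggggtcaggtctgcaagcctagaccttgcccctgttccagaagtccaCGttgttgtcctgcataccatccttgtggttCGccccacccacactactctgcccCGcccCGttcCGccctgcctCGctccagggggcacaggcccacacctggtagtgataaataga

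**Figure D1:**
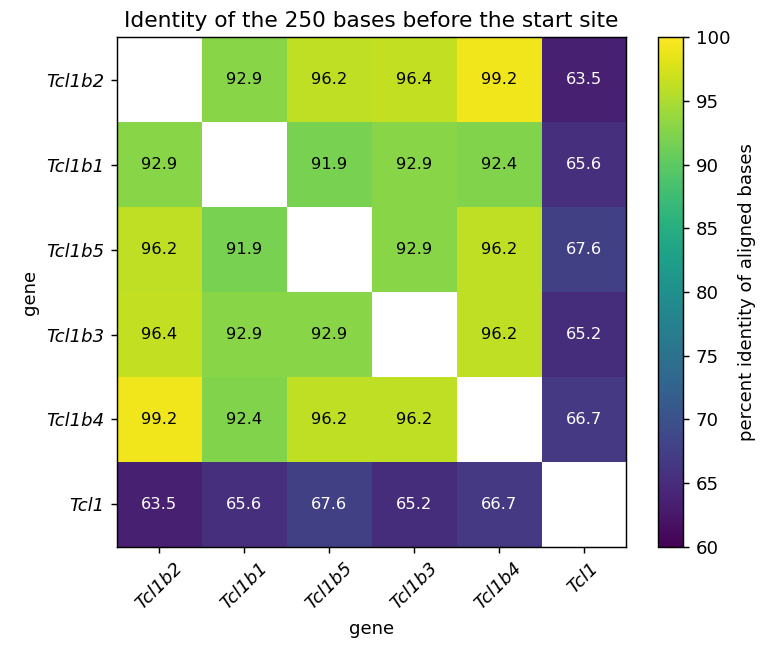
Percent identity of aligned bases (colour and number) between the 250 bases before the start site of each pair of the 6 genes (both axes). The Tcl1b genes share 91.9% to 99.2%, and Tcl1 shares 63.5% to 67.6% with them.

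Polycomb complexes in ES cells are known to gather at CpG-rich start sites, so the CG dinucleotides of these windows were counted. Tcl1b1 and Tcl1b5 held 1 CG each, a count that 18.8% of all promoters did not exceed. Tcl1b2, Tcl1b3 and Tcl1b4 held 3 each (37.8% did not exceed this) and Tcl1 held 7 (57.0%), against a median of 6 over all promoters. The ratio of observed to expected CG was 0.061 to 0.183 in the Tcl1b genes and 0.34 in Tcl1, with a median of 0.37 over all promoters. None of the 6 windows held, on either strand, ATGCAAAT (the octamer, in 1.6% of all promoters), CACGTG (an E-box, 6.0%), GGCGGGAA (an E2F site, 1.9%) or the core promoter element TATAAA (12.4%). These are matches of letters only.

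Near-identical copies also limit what a probe can tell apart. Each probe is a 60-base DNA strand. The Tcl1b1 probe and the second Tcl1b4 probe shared 36 bases with 1 difference. It is shown here in a 30-base window, with the differing base in capitals, as the closest match between probes of different members in the deposited table.
Tcl1b1 probe: agagaacatctggagTacttgtccaggtgc
Tcl1b4 probe 2: agagaacatctggagGacttgtccaggtgc
Counted from 1 at the 5′ end of the window, the difference is T16G from the Tcl1b1 to the Tcl1b4 probe. The next closest pair, Tcl1b2 probe 2 and Tcl1b4 probe 3, shared 29 bases with 2 differences. The bright Tcl1b5 probe outside that table was not compared with the others. How much a transcript of one copy binds the probe of another was not tested. The positions of the probes within the transcripts were not established.

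Values below are log2 of the processed intensity after quantile normalisation, given as mean ± SD of 3 arrays. A probe's level may be set against the same probe in another group, but not against another probe. A spot is called above background by the scanner software's well-above-background flag. Of the 10 member probes, 2 were above background on all 9 arrays, the Tcl1 probe and Tcl1b5 probe 1, and 3 were on none. Between 45.3% and 57.4% of the table's probes were above background on an array. As these are bulk samples, fewer cells with a transcript and less transcript per cell cannot be told apart. Probes of a gene are numbered from the brightest. Both slides carried all 3 groups, slide 2 with 1 array of each (WT 3, KO 1, I53A 3) and slide 1 with the other 6. Of the ES cell markers 9 of 10 had a probe, and all 9 (Pou5f1, Sox2, Nanog, Esrrb and Klf4 among them) were above background on all arrays of each group. Of 9 lymphocyte markers, Cd4, Cd79b and Cd3e were above background on all arrays of each group, while Cd79a, Cd8a and Ms4a1 were at background in all groups. Of 7 oocyte markers, Zp3 was above background on all arrays and Zp2, Gdf9 and Oosp1 on none.

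Tcl1, the AKT co-activator that gives the family its name, had 1 probe, and it was bright on every array. The WT arrays read 9.08, 9.09 and 9.29, the KO arrays 8.56, 8.77 and 8.78, and the I53A arrays 8.56, 8.15 and 8.53. Both mutants thus lay below WT on all arrays, with no overlap, and the order of the group means was WT, KO, I53A. The KO and I53A means lay 0.29 apart on the log2 scale (SE 0.21), and the lowest KO and highest I53A arrays were level to 2 decimals. The means were 9.15 ± 0.12, 8.71 ± 0.12 and 8.42 ± 0.23. I53A against WT gave a log2 fold change of −0.74 (SE 0.21), 1.67-fold lower, which did not pass the test (limma, adjusted p 0.265, unadjusted p 0.00611). KO lay 0.45 below WT on the log2 scale, a 1.36-fold lower mean (log2 fold change −0.45, SE 0.21).

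Tcl1b1, a Tcl1b copy, showed the widest separation in the family. Its signal was 6.72, 6.68 and 7.04 in WT and above background on all 3 arrays. In KO it was 3.36, 3.77 and 5.35, not well above background on any array. In I53A it was 5.30, 4.97 and 5.38, above background on all 3. All 6 mutant arrays lay below all WT arrays. The third KO array lay above 2 of the I53A arrays and the other KO arrays below all I53A arrays, so KO and I53A overlapped.

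The Tcl1b1 means were 6.82 ± 0.20 in WT, 4.16 ± 1.05 in KO and 5.22 ± 0.22 in I53A. KO was at least 5.85-fold lower than WT, where KO signals under the array's lowest above-background signal are raised to it (fitted log2 fold change −2.66, SE 0.44). I53A lay 3.03-fold below WT (log2 fold change −1.60, SE 0.44), which did not pass the test over all probes (limma, adjusted p 0.222, unadjusted p 0.00417). The spread is estimated over all groups, so leaving out the third KO array cut the SE to 0.24 with the fold change unchanged. The I53A decrease then passed (limma, adjusted p 0.0408). Leaving out any other single array gave adjusted p from 0.172 to 0.506. Tcl1b1 was chosen for a KO signal below WT, so its WT arrays are not independent of that choice. The KO call ended under another background correction and on slide 1 alone. KO was at least 1.93-fold below I53A by the same rule, with overlapping arrays (fitted log2 fold change −1.055, SE 0.44). Here "at least" refers to the background limit alone and not to the spread. The fitted value was −0.57 on slide 1 alone and −0.19 under the other background correction. The plot of signals by array sets Tcl1b1 beside the other members.

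**Figure D2:**
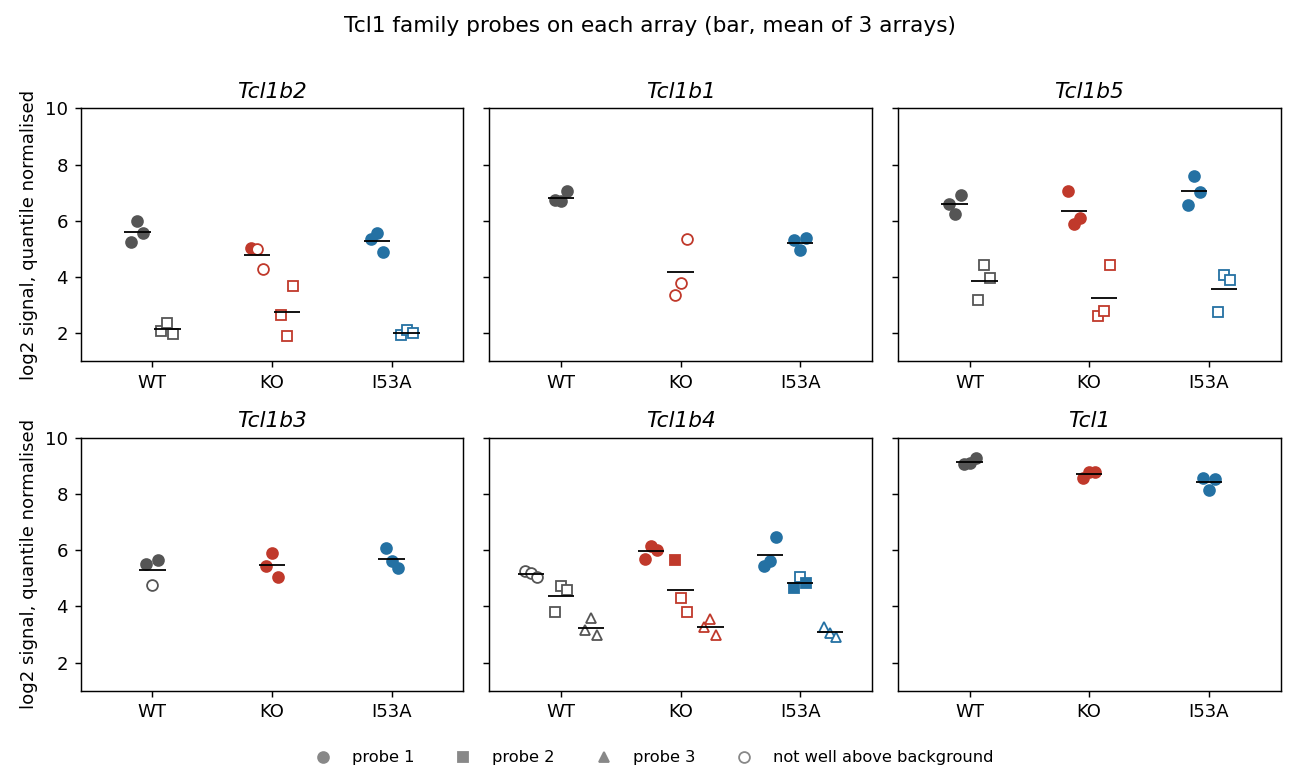
Log2 signal (quantile normalised, y axis) of each probe of the 6 genes on each of 9 arrays by group (x axis), with bars at the mean of 3 arrays, shapes for different probes of a gene and open symbols for spots not well above background. Tcl1b1 is at 6.68 to 7.04 in WT and 3.36 to 5.35 in KO, and Tcl1 is lower in both mutants than in WT.

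Tcl1b2, the copy next to Tcl1b1, had 2 probes. Probe 1 read 5.25, 5.99 and 5.55 in WT, 5.04, 4.98 and 4.29 in KO and 5.35, 5.57 and 4.88 in I53A. The KO arrays lay below the WT arrays, with only 1 of the 3 above background, while I53A overlapped both. KO was 1.77-fold below WT, and the I53A difference was small (log2 fold change −0.33, SE 0.30, limma adjusted p 0.791). Probe 2 was at background on all 9 arrays, so it neither repeats nor contradicts probe 1.

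Tcl1b5, which lies between Tcl1b1 and Tcl1b3, was above background only on the probe outside the deposited table. The study's methods kept only probes that mapped to transcripts of a single gene and were not largely repetitive. Why this probe is absent from the table, and whether it also binds other Tcl1b copies, was not tested. That probe read 6.58, 6.25 and 6.92 in WT, 7.04, 5.88 and 6.09 in KO and 6.56, 7.58 and 7.02 in I53A. All 3 groups overlapped. I53A had a log2 fold change of 0.47 (SE 0.37, limma adjusted p 0.83 over 55681 probes) and KO one of −0.25 (SE 0.37). The probe in the table was at background on all arrays.

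Tcl1b3 had 1 probe, with WT arrays at 5.52, 4.75 and 5.66, KO arrays at 5.42, 5.90 and 5.06, and I53A arrays at 6.06, 5.63 and 5.38. The second WT array was not well above background and all groups overlapped. The I53A change was 0.38 (SE 0.32, limma adjusted p 0.77) and the KO change 0.15 (SE 0.32), both on the log2 scale.

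Tcl1b4, the copy nearest to Tcl1, had 3 probes. Probe 1 read 5.25, 5.19 and 5.05 in WT, not well above background on any array. It read 5.70, 6.17 and 6.01 in KO and 5.43, 5.63 and 6.46 in I53A, above background on all 6. All mutant arrays lay above all WT arrays. The group mean was 1.73-fold above WT in KO and 1.59-fold above it in I53A, where the third array was the highest. Both folds are ratios to a WT signal not well above background. The I53A difference did not pass the test (log2 fold change 0.67, SE 0.29, limma adjusted p 0.515, unadjusted p 0.0408).

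The other Tcl1b4 probes gave little more. Probe 2, the one that resembles the Tcl1b1 probe, was above background on 0 WT, 1 KO and 2 I53A arrays, at 4.37 ± 0.50, 4.59 ± 0.96 and 4.85 ± 0.19. Its groups overlapped (I53A against WT, limma adjusted p 0.791). Probe 3 was at background throughout. Mtcp1, the family member outside the cluster, was level within its spread on the probe that could be read, with means of 5.66 ± 0.25 (WT), 5.74 ± 0.18 (KO) and 5.80 ± 0.33 (I53A) (I53A against WT, limma adjusted p 0.915), and its second probe was at background.

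**Figure D3:**
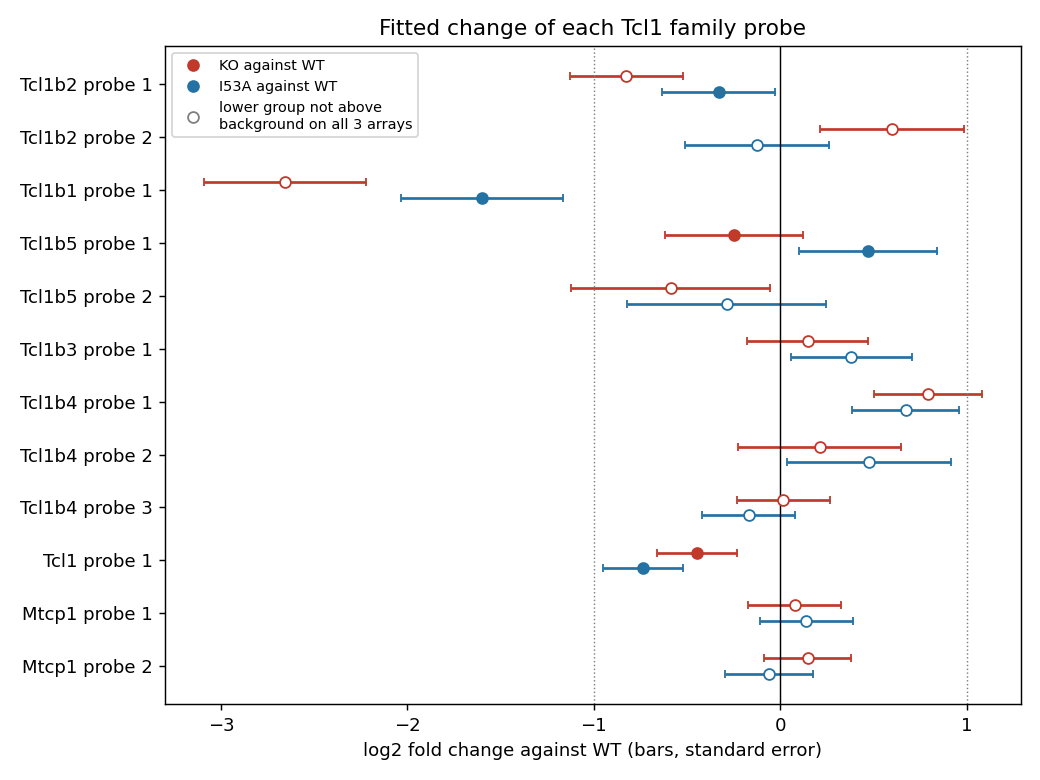
Fitted log2 fold change against WT (x axis, bars the standard error) of the 10 member probes and 2 Mtcp1 probes (y axis) in KO and I53A, with dotted lines at 2-fold and open symbols where the lower group was not above background on all 3 arrays. Tcl1b1 lies at −2.66 in KO and −1.60 in I53A, the only member probe past the dotted lines.

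A call needed both a limma adjusted p under 0.05 and a change above 2-fold. Of the 9 member probes in the table, 1 (Tcl1b1) was called lower and 0 higher in KO against WT, where 1.11% of all 30170 probes were called lower and 2.73% higher. That count follows from how the family was chosen. In I53A against WT 0 of 9 were called, with 0.0928% of all probes called lower and 0.235% higher, and at an unadjusted p under 0.05 there were 2 lower (Tcl1, Tcl1b1) and 1 higher (Tcl1b4 probe 1), beside 3.83% of all probes lower and 5.37% higher. In KO against I53A 0 of 9 were called, beside 0.368% of all probes called lower and 0.958% higher. An unadjusted p under 0.05 was reached there by 1 lower (Tcl1b1) and 0 higher, beside 5.03% and 6.32% of all probes. This comparison uses the KO arrays on which the family was chosen, so its counts are a description too. The median log2 fold change of the 9 probes was 0.02 in KO against WT, −0.17 in I53A against WT and −0.23 in KO against I53A, beside −0.02, −0.01 and −0.01 over all probes. The groups did not overlap for 4 of the 9 probes in KO against WT, 3 in I53A against WT and 1 (Tcl1) in KO against I53A, beside 24.1%, 17.4% and 15% of all probes with a value on every array compared.

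Position in the cluster did not order the changes. From the Tcl1b2 end to the Tcl1 end, the log2 fold changes of the brightest probes in I53A against WT were −0.33, −1.60, 0.47, 0.38, 0.67 and −0.74. In KO against WT they were −0.83, −2.66, −0.25, 0.15, 0.79 and −0.45. The low values thus sat at Tcl1b2, Tcl1b1 and Tcl1, though the Tcl1b2 groups overlapped in I53A against WT. Between them, Tcl1b3 and Tcl1b4 were above 0 in both mutants. Tcl1b5, read by the probe outside the deposited table, was at 0.47 in I53A and −0.25 in KO. Of 12 genes outside the family whose start site lay within 500000 bases, limma called 0 in each of the 3 comparisons. Beside this, 1.11% of all probes were called lower and 2.73% higher in KO against WT. The called shares were 0.0928% and 0.235% in I53A against WT, and 0.368% and 0.958% in KO against I53A. An unadjusted p under 0.05 was reached by 0 of the 12 genes. Of all probes, 7.77% did so as lower and 9.64% as higher in KO against WT. The shares were 3.83% and 5.37% in I53A against WT, and 5.03% and 6.32% in KO against I53A. Only Glrx5, Dicer1 and Ak7 of these neighbours were above background on all arrays. Most of the others were on none, so little change could be seen there. Over all 12 neighbours the median log2 fold change was −0.20 in KO and −0.12 in I53A against WT.

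The nearest expressed neighbour on the Tcl1b2 side was Glrx5, which encodes a mitochondrial glutaredoxin of iron-sulphur cluster assembly, 114331 bases away. It read 9.42 ± 0.24, 9.67 ± 0.31 and 9.29 ± 0.28 in WT, KO and I53A (limma adjusted p 0.686 and 0.921 against WT). On the Tcl1 side the first was the adenylate kinase gene Ak7, 483244 bases away, at 6.02 ± 0.03, 6.98 ± 0.40 and 6.39 ± 1.02 (limma adjusted p 0.293 and 0.852). Tunar, the neighbour nearest to Tcl1 at 113856 bases, was at background on all arrays.

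**Figure D4:**
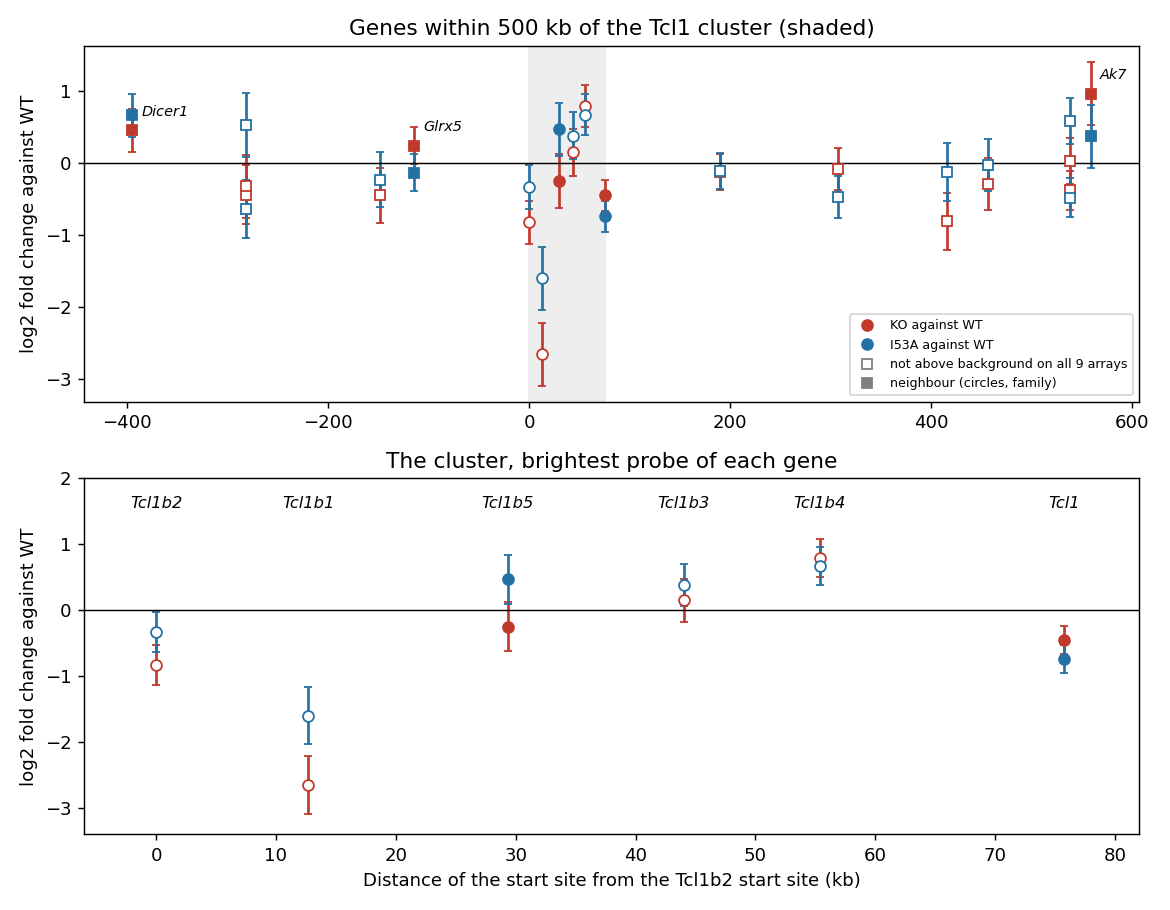
Log2 fold change against WT (y axis, bars the standard error) by distance of the start site from that of Tcl1b2 in kb (x axis), for the family (circles) and 12 neighbours (squares), with open symbols where a probe was not above background on all 9 arrays. Tcl1b1 at −2.66 in KO and −1.60 in I53A stands below its neighbours on both sides, and Glrx5, Dicer1 and Ak7 are the 3 filled neighbours.

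The transcription factors known to act on Tcl1 or on self-renewal in ES cells were read beside it, since Tcl1 is a known target of OCT4 (Pou5f1) there. Pou5f1 read 13.44 ± 0.16, 13.24 ± 0.25 and 13.67 ± 0.06 in WT, KO and I53A (limma adjusted p 0.684 and 0.797 against WT). Sox2, its partner, fell in KO by 1.03 on the log2 scale (limma adjusted p 0.0425) and had a log2 fold change of −0.73 in I53A (adjusted p 0.356). The T-box gene Tbx3 rose in KO (log2 fold change 1.84, SE 0.28, limma adjusted p 0.00537) and was higher in KO than in I53A (1.58, adjusted p 0.027), with 0.26 in I53A against WT (adjusted p 0.829). The Tbx3 call against WT held under 17 of 19 alternatives, ending with normexp and on slide 1 alone, and that against I53A under 11, ending also without any KO array, I53A 2 or I53A 3. The Sox2 call held under 7 (adjusted p up to 0.277). It ended with normexp, scaling to the 75th percentile, all non-control probes tested and slide 1 alone, and when any WT array, any KO array or I53A 1 was left out.

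Of the other factors, Esrrb, an orphan nuclear receptor, had log2 fold changes of −0.92 in KO and −1.41 in I53A (limma adjusted p 0.238 and 0.213). Prdm14, a repressor of differentiation genes, read 6.16 ± 0.09 in KO, with a log2 fold change of −0.04 against WT, and 5.07 ± 0.25 in I53A, where 2 of 3 arrays were above background. It was 2.13-fold higher in KO than in I53A (limma adjusted p 0.0383), and 2.19-fold lower in I53A than in WT without passing the test (adjusted p 0.0682). The call against I53A held under only 4 of 19 alternatives (adjusted p up to 0.143). It ended with slide as a block, with array weights, with normexp, scaling to the 75th percentile, all non-control probes tested and slide 1 alone, and without any WT or KO array, I53A 1 or I53A 2. Klf4 stood at 0.67 in KO and −0.26 in I53A (adjusted p 0.158 and 0.778). Nanog stood at 1.06 and −0.01 (adjusted p 0.141 and 0.972), from 7 of 9 arrays because its spots on the others were flagged as outliers. Of these 7 factors, 1 was called higher and 1 lower in KO against WT, beside 2.73% and 1.11% of all probes. In KO against I53A 2 were called higher and 0 lower, beside 0.958% and 0.368%. Limma called 0 in I53A against WT, beside 0.235% higher and 0.0928% lower. An unadjusted p under 0.05 was reached there by 3 lower and 0 higher factors, beside 3.83% and 5.37% of all probes. In KO against WT 2 lower and 3 higher reached it, beside 7.77% and 9.64%. In KO against I53A 0 lower and 4 higher did, beside 5.03% and 6.32%.

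Of 37 genes of the PI3K-AKT pathway, on which TCL1 proteins act, 36 had a named probe in the table. In KO against WT limma called 1 higher and 1 lower, beside 2.73% and 1.11% of all probes. In KO against I53A it called 1 higher and 0 lower, beside 0.958% and 0.368%. It called 0 in I53A against WT, where the shares were 0.235% and 0.0928%. Without adjustment, p was under 0.05 for 2 higher and 5 lower genes in KO against WT, beside 9.64% and 7.77% of all probes. In I53A against WT this held for 0 higher and 2 lower genes, beside 5.37% and 3.83%. In KO against I53A it held for 1 higher and 4 lower, beside 6.32% and 5.03%. Inpp5d, the gene for the lipid phosphatase SHIP1, was not well above background on any WT array (4.47 ± 0.46). Its KO level of 6.67 ± 0.42 was 4.59-fold higher (adjusted p 0.00469), and I53A stood at 4.71 ± 0.43. That call ended only with normexp background correction among 19 alternatives. It was 3.91-fold higher in KO than in I53A (adjusted p 0.0194, up to 0.0896 under the alternatives), a call that ended with normexp, on slide 1 alone and without KO 2, KO 3, I53A 1 or I53A 2. Irs1, an adaptor of insulin and IGF receptors, went from 6.53 ± 0.31 to 5.28 ± 0.20 in KO, 2.38-fold lower (adjusted p 0.0181), and stood at 5.95 ± 0.20 in I53A. The Irs1 call held under 13 of 19 alternatives and ended with normexp, on slide 1 alone and without WT 1, WT 2, KO 1 or KO 3.

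Akt2 and Pdpk1 were not called in any comparison. Akt2, the kinase gene, read 8.42 ± 0.25 in WT, 8.67 ± 0.21 in KO and 8.63 ± 0.35 in I53A (limma adjusted p 0.667 and 0.853 against WT). Pdpk1, whose product PDK1 phosphorylates AKT, read 8.89 ± 0.21, 8.88 ± 0.14 and 8.91 ± 0.24 (adjusted p 0.995 and 0.988). The list's median log2 fold change was −0.14 in KO and −0.09 in I53A against WT.

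**Figure D5:**
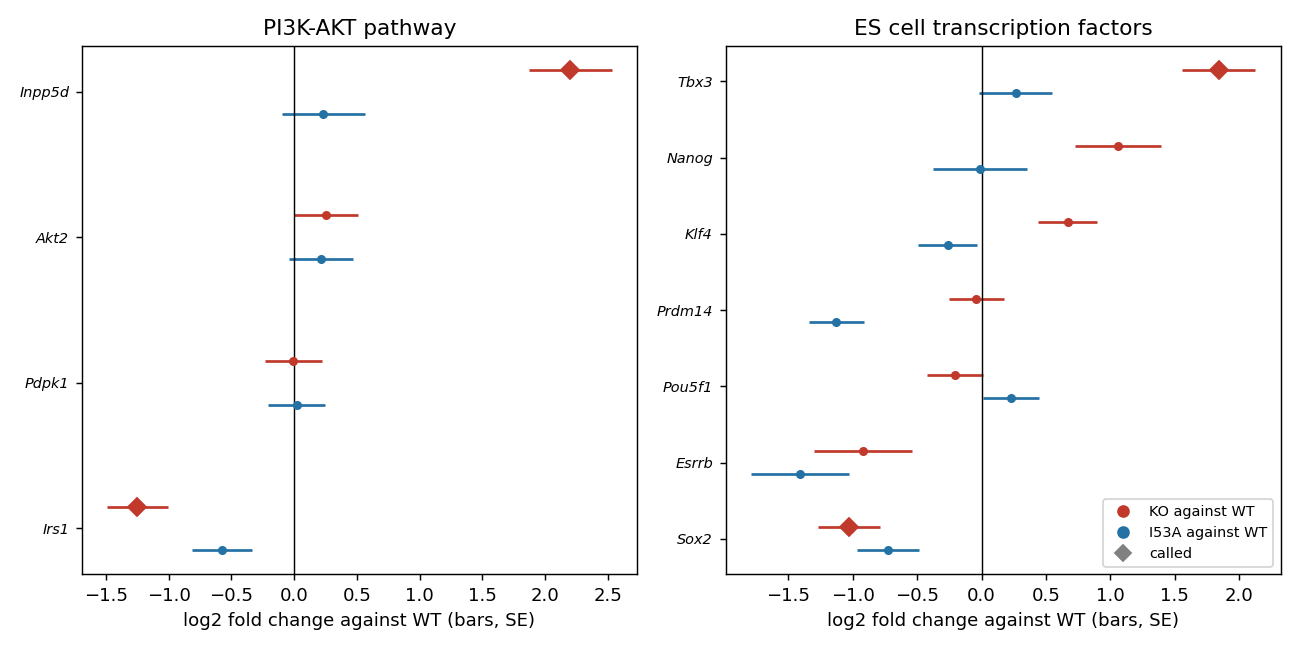
Log2 fold change against WT (x axis, bars the standard error) of the 4 PI3K-AKT pathway genes named in the text (left) and 7 ES cell transcription factors (right) in KO and I53A, with diamonds for called genes. Inpp5d and Irs1 on the left and Tbx3 and Sox2 on the right are called in KO, and none in I53A.

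Likeness of pattern was measured as Pearson's r of log2 signal over the 9 arrays, among 17335 probes above background on at least 3 arrays. The arrays share their groups and slides, so r is a description. Most like Tcl1 were Sars (r 0.971), Ccdc28b (0.962), Fkbp3 (0.956), Map2k1 (0.956) and Kctd2 (0.955). Each of these had its highest mean in WT and its lowest in I53A, as Tcl1 did. Most like Tcl1b1 were Uhrf1bp1l (r 0.976), Pmel (0.976), Ifitm1 (0.976), Zfp740 (0.969) and Lrrc8d (0.964), each highest in WT and lowest in KO. The r of Tcl1 with Tcl1b1 was 0.66, which put Tcl1b1 at rank 962 among genes for Tcl1 and Tcl1 at rank 1646 for Tcl1b1. The r with Tcl1b1 was 0.44 for Tcl1b2 and −0.31 for Tcl1b3. A pair of background probes, Tcl1b4 probe 3 and Mtcp1 probe 2, had r 0.94, so a high r also arose between probes with no readable signal.

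Markers of other cell types moved with the KO group. Of 9 genes of the 2-cell stage 4 had a probe, and 3 of them (Zscan4a, Zfp352, Usp17lc) were above background on all KO arrays, against 1 in WT and 2 in I53A. Their summed linear signal was 211 to 263 on WT arrays, 524 to 920 on KO and 194 to 283 on I53A. Of 6 primitive endoderm markers, Gata6 was above background on all KO arrays and none was in WT or I53A. Their summed signal was 59.2 to 97.4 on WT arrays, 168 to 250 on KO and 84.4 to 90.6 on I53A, with Sox7, Pdgfra and Dab2 at background in all groups. The 7 fibroblast markers summed to 379 to 427, 247 to 261 and 309 to 383. Col1a1, Col1a2 and Col3a1 were above background on all arrays, and Pdgfra, Lum and Postn were at background in all groups. Dcn was above background on all KO arrays but not on all arrays of WT or I53A, although the sum was lowest in KO. The 7 oocyte markers summed to 238 to 272, 409 to 503 and 263 to 309, and the 9 lymphocyte markers to 405 to 450, 479 to 525 and 381 to 430. Their part in the KO values of the Tcl1 family was not tested.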

How the data were processed

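RNA of 9 samples of E14Tg2a mESCs (3 WT, 3 KO, 3 I53A, grouped by sample title) was labelled with Cy3 and hybridised to Agilent SurePrint G3 mouse arrays. The authors extracted spots with Feature Extraction 11.5.1.1, and the deposited scan files give a background-subtracted processed intensity per spot on a linear scale. The deposited series table gives log2 values after averaging and quantile normalisation for 30170 probes that the authors kept. Its fold changes and p-values, from the authors' own comparisons, were not used. Each array held 62976 spots, of which 3671 were controls. Between 0.4% and 0.548% of spots per array were flagged as outliers and 5 to 9 were saturated. The number of arrays limits the precision.

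Intensities without control and outlier-flagged spots were log2 transformed, repeated spots of 432 probes averaged, and 55681 probes quantile normalised (R 4.3.3, limma 3.58.1). All 30170 table probes were fitted with 1 mean per group (lmFit, eBayes, two-sided) over all 9 arrays, with Benjamini-Hochberg adjustment over them. The Tcl1b5 probe outside the table took its adjusted p from a fit on 55681 probes. "At least" folds use, on each array with a dim spot, the higher of the spot and the lowest signal above background. Where no dim spot lay under that lowest signal, nothing was raised, and the fold is the plain ratio of means, given without "at least". Sequences are from RefSeq (all 6 members matched) and the deposited table, and were aligned with Biopython 1.88. For lists, the brightest probe of a gene was used.

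Members and lists were chosen with earlier results of these data known. Named were all members and probes, Mtcp1, called pathway genes and the brightest of a set of core pathway genes, all 7 upstream factors, called and nearest expressed neighbours, and the 5 genes most like Tcl1 and Tcl1b1. Some items that this rule names are not reported here. Tunar and Dicer1 were named after their values were seen, as were the marker genes. Alternatives were another background correction, scaling, probe set, dim-probe filter, outlier spots kept, slide or replicate number as a block, slide 1 alone, the authors' log2 values, array weights and leaving out each array. Their use on the called pathway genes and factors was added after seeing the data.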

Additional observations from a re-analysis of the deposited data

How the results depend on the processing

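The Tcl1b1 value in KO against WT was below 0 under all 19 alternatives (−3.25 to −0.89 on the log2 scale) and called under 17. The family was chosen after Tcl1b1 was seen to fall on these arrays, so this is not independent support. Of the member probes, 0 were called in KO against WT with normexp background correction (run on the median spot signal), where Tcl1b1 changed by −0.89, under 2-fold, and 0 on slide 1 alone, where it changed by −2.14 with fewer arrays. Normexp with an offset of 50 shrinks changes of dim probes by construction. Leaving out 1 array gave 1 to 1 calls in KO against WT, and 0 to 1 in I53A against WT and in KO against I53A. The 1 was Tcl1b1 without KO 3 (−1.60 and −1.65 on the log2 scale). Its limma adjusted p in I53A against WT spanned 0.0397, with normexp and a change under 2-fold, to 0.527, on slide 1 alone. Of the AKT pathway genes 0 were called with normexp in KO against WT and 0 in KO against I53A, and 4 and 2 with slide as a block, where the cause was not tested. Scaling to the 75th percentile moved the median of all probes in KO against WT to −0.09, with Tcl1 at −0.18. Over all probes, KO against WT had 335 lower and 824 higher calls, 93 and 233 with normexp, 42 and 290 on slide 1 alone, and 213 and 584 with the replicate number as a block. Of 504 member values under alternatives, 486 moved by less than 1 SD of replicates. Many of these log2 fold changes could not move. They stayed the same by construction under the other probe set, the dim-probe filter and the slide and replicate blocks. Leaving out an array of the group not compared also left them unchanged. The count is therefore no measure of robustness. Same-numbered samples of different groups deviated with r of −0.39 to 0.38 (median −0.01), and other pairs with −0.25 to 0.43 (median −0.03). These r show no common pairing by number but cannot exclude one. By slide, the median r was 0.11 for pairs on the same slide and −0.12 for the others. With the replicate block 1 member probe was called in KO against WT, Tcl1b1, and 0 in the other comparisons. The calls of Sox2 in KO against WT and of Tbx3 and Prdm14 in KO against I53A also ended under that block. Probes at background, 3 of the 10 here, limit what could be seen.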
